A study of Rattus norvegicus with 18 samples.

Results

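The cytosolic sulfotransferases Sult1a1, Sult1b1, Sult1c2, Sult1c3, Sult1e1 and Sult2a2, and Papss2, which makes their sulfate donor, were followed in rat liver over a course of diethylnitrosamine. The 7 genes were chosen by name, with older symbols accepted, and were carried by 8 probe sets of the 31099 on the Affymetrix rat whole-genome array. All 7 passed the filter on low signals, among 10453 genes tested of 13903 with a probe set of their name. Sult1c2 had 2 probe sets, and the probe set deposited as Sult1c1 was assigned to Sult1c3 through its RefSeq accession.

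Liver was taken from Sprague-Dawley rats after 5, 8, 12, 16 or 18 weeks on diethylnitrosamine, a nitrosamine used to produce liver tumours in rodents, and from normal rats at 0 h, with 3 arrays in each of the 6 groups (18 arrays). Tissue was cut from the centre of the right lobe, and the labels describe the treated animals as a model of hepatic cancer. The 3 arrays per group are labelled as technical replicates, and whether they stem from different animals is not said, so that every p value below reflects array spread and perhaps no animal spread. All samples carry the same age label (12 weeks), no untreated liver of a matching age was analysed here, and so treatment time and age cannot be told apart. Neither the sex of the rats nor the dose is given in the sources used here.

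Sulfation is one of the main conjugation reactions of the liver. Cytosolic sulfotransferases move a sulfo group from 3'-phosphoadenosine 5'-phosphosulfate (PAPS) to a hydroxyl or amino group of hormones, bile acids, drugs and carcinogens, which usually makes them more soluble and in some cases makes a reactive ester. PAPS is made from ATP and inorganic sulfate by the PAPS synthases Papss1 and Papss2, and in rat liver several of the sulfotransferases are expressed differently in males and females under the control of the growth hormone pattern.

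The genes had separate courses. Sult2a2 was lowest at 5 weeks and higher at each later time up to 16 weeks. Sult1e1 and Sult1c3 fell between 8 and 12 weeks, and Sult1c2 fell over the same interval and was higher again at 18 weeks. Papss2 was lowest at 8 weeks, and Sult1a1 and Sult1b1 never differed 2-fold from normal liver. A gene was called changed when its adjusted p in limma, over all genes tested, was under 0.05 and its fold change was at least 2, and changes are differences of log2(signal + 16) ± SE (n = 3 arrays per group). Against normal liver 2 of the 7 genes were called at 5 weeks, where 6.07% of all genes were called, and 2 at 8 weeks, where 10.4% were. The count was 4 of 7 at 12, 16 and 18 weeks, against 16.5%, 20.1% and 15.4% of all genes. All these calls were lower than normal, a direction in which 1.61%, 3.13%, 4.43%, 5.60% and 4.41% of all genes were called from 5 to 18 weeks. No member was called higher, while 4.47%, 7.31%, 12.1%, 14.5% and 11.0% of all genes were at these times. The median change of the 7 genes was -0.19, -0.50, -2.21, -2.08 and -1.84 from 5 to 18 weeks, beside 0.04, 0.12, 0.15, 0.16 and 0.11 over all genes tested. Over the 6 groups the moderated F-test passed for all 7 genes (adjusted p 4.77e-16 to 0.000192), as it did for 85.0% of all genes.

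**Figure D1:**
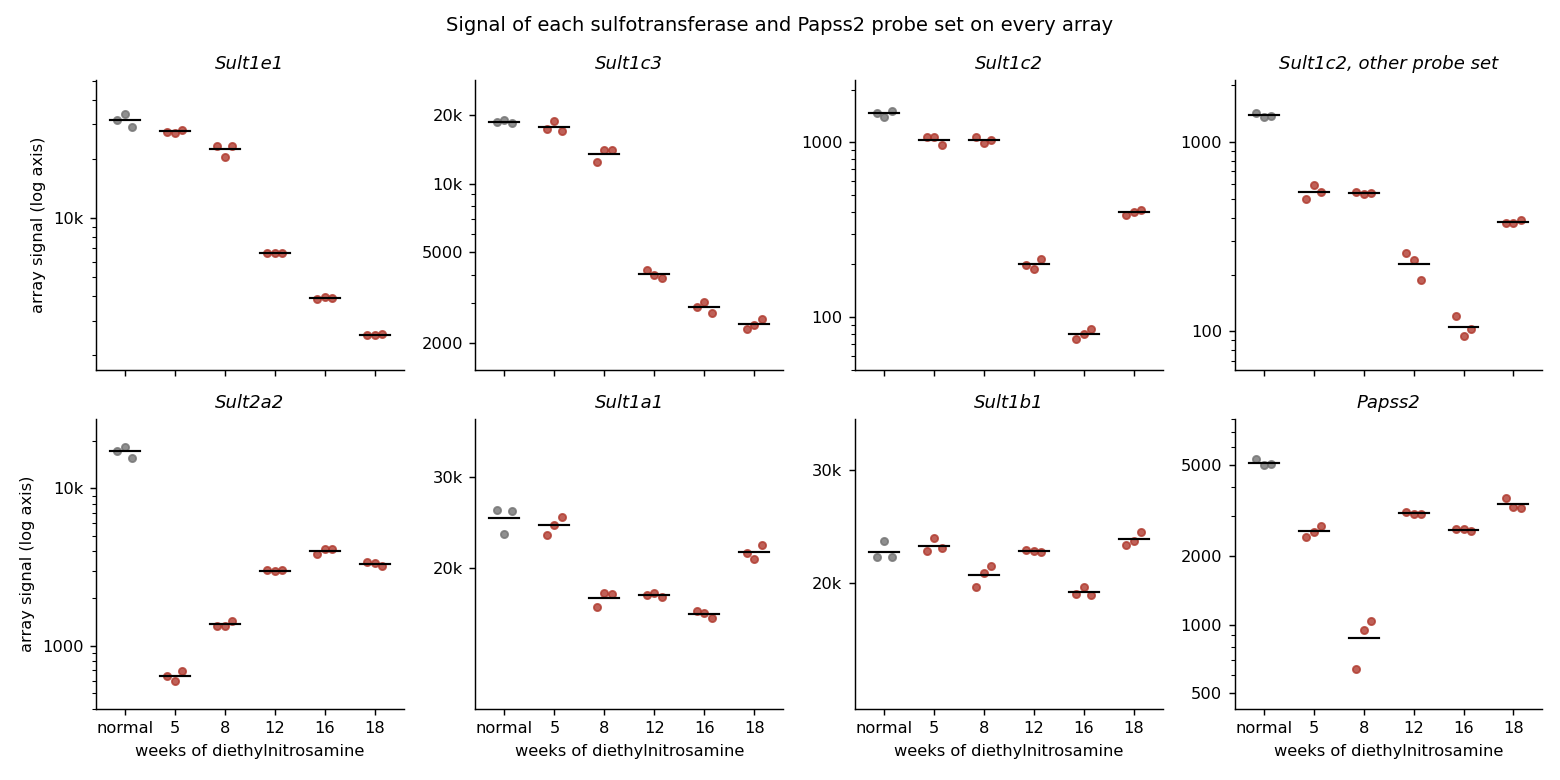
Deposited signal of each probe set (vertical log axes) on every array, with normal liver in grey and the 5 treated times in red, each black bar being the mean of 3 arrays. Sult2a2 was lowest at 5 weeks (mean 644), Sult1e1 and Sult1c3 dropped between 8 and 12 weeks, both Sult1c2 probe sets were lowest at 16 weeks, Papss2 was lowest at 8 weeks (mean 872), and Sult1b1 stayed between 19176 and 23997.

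Sult2a2 encodes a hydroxysteroid sulfotransferase, which acts on steroids such as dehydroepiandrosterone and on bile acids and is more abundant in female than in male rat liver. The 250 bases before its RefSeq start (GRCr8, chr1:85104533-85104782, minus strand) are shown because this promoter was the one of the 7 that held an HNF1-type motif, with that site and the matches to a TATA box in capitals.
Sult2a2: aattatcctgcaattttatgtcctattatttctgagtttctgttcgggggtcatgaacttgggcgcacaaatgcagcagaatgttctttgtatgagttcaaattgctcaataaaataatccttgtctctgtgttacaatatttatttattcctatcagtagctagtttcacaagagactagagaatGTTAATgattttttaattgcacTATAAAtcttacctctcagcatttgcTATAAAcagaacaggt
On either strand the letters GTTAAT (HNF1-type motif) were found 1 time and TATAAA 2 times in this window, without overlap. Of 27457 rat promoter windows of this length 6.46% held the first motif and 13.1% the second. A match of letters is a description and was not tested for binding.

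Signals of Sult2a2 were 17376, 18424 and 15604 in normal liver, 642, 599 and 692 at 5 weeks and 1345, 1329 and 1430.5 at 8 weeks. At 12 weeks they were 3038, 2969 and 3018, at 16 weeks 3847, 4134 and 4112, and at 18 weeks 3429.9, 3351 and 3215. No array of one group overlapped with another group, and the order from low to high was 5, 8, 12, 18 and 16 weeks and then normal liver. The mean signal was thus 3.76% of the normal mean at 5 weeks and 23.5% at 16 weeks. The change against normal liver was -4.70 ± 0.0651 at 5 weeks (adjusted p = 7.41e-16), -3.63 at 8, -2.50 at 12, -2.08 at 16 and -2.35 at 18 weeks, all called. The gain between times was itself called at 8 against 5 weeks (1.07, adjusted p = 1.72e-08) and at 12 against 8 weeks (1.13, adjusted p = 2.99e-09). Between 12 and 16 weeks the difference was 0.42 and between 16 and 18 weeks -0.27, neither of them called. The gain at 12 against 8 weeks was 0.86 and no longer called when each array was centred on its median.

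Signals of some exocrine pancreas markers were lower at the times of the Sult2a2 loss. Of 6 such markers 2 passed the filter, Cpa1 and Cela1, and both were called lower at all 5 times. The summed signal of the list ranged from 395 to 447 at 5 weeks and from 239 to 680 over the 5 times, against 7033 to 7786 in normal liver. Cpa1 had means of 24.6, 49.4, 90.7, 163 and 105 at the 5 times and 6264 in normal liver, and so made up most of the normal sum. It passed the filter only through normal liver, where it was high, so its calls lower add no support. Prss1, Cel, Pnlip and Ctrb1 lay between 7.09 and 103 in all groups. They averaged 49.0, 12.8, 57.4 and 16.8 in normal liver and 45.0, 21.4, 99.5 and 35.5 at 5 weeks, and so did not share the loss of Cpa1 and Cela1. The part of such tissue in the Sult2a2 result was not tested. In whole tissue fewer cells of a type and less RNA per cell cannot be told apart, which holds for all results here.

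Sult1e1 encodes estrogen sulfotransferase, which inactivates estradiol and estrone and is male-predominant in rat liver. Sult1c3 encodes the male-predominant arylamine sulfotransferase that turns N-hydroxyarylamines such as N-hydroxy-2-acetylaminofluorene into reactive esters in the rat. Upstream bases of both genes are given because they moved together, and those of Sult1b1 because this gene lies close to Sult1e1 on chromosome 14 and was called at no time (GRCr8, chr14:20701230-20701479 plus strand, chr9:7594257-7594506 minus strand and chr14:20771667-20771916 plus strand).
Sult1e1: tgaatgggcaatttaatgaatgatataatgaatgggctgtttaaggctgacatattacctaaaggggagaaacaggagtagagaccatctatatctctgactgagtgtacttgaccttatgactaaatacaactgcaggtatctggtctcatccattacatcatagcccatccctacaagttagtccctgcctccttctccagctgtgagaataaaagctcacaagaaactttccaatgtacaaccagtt
Sult1c3: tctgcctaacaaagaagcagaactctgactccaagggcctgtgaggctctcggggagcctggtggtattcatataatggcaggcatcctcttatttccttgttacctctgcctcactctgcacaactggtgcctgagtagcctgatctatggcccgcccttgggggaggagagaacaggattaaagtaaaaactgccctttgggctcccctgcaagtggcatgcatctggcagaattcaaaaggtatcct
Sult1b1: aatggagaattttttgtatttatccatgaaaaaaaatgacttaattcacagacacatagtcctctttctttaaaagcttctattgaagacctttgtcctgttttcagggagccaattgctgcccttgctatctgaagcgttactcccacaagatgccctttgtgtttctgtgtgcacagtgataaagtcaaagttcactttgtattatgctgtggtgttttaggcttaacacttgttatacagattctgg
None of these 3 windows held a TATA box (TATAAA), an HNF1-type motif (GTTAAT), the STAT5 motif TTCNNNGAA or the letters TGACNNNGC (antioxidant response element) on either strand, so no letters are in capitals. The last 2 motifs were found in 7.52% and 10.2% of all windows.

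Signals of Sult1e1 were 31439.5, 33767 and 29167 in normal liver, 27383, 27213 and 28186.5 at 5 weeks and 23388, 20463 and 23314 at 8 weeks. They were 6650.4, 6613 and 6659.7 at 12 weeks, 3884, 3939 and 3933 at 16 weeks and 2535, 2528 and 2559 at 18 weeks. Each group lay below all arrays of the time before it, and the mean at 18 weeks was 8.08% of the normal mean. The change against normal liver was -0.19 ± 0.0575 at 5 weeks and -0.49 at 8 weeks, neither called, and then -2.24, -3.0 and -3.62 at 12, 16 and 18 weeks (adjusted p = 6.36e-16 at 18 weeks). Among the steps between neighbouring times the largest was that between 8 and 12 weeks, at -1.75 (adjusted p = 8.03e-12). The later steps of -0.76 and -0.62 had adjusted p values of 2.31e-07 and 2.07e-06 but were under 2-fold.

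Sult1c3 had a course like that of Sult1e1. Its signals were 18551, 18967 and 18448 in normal liver, 17387, 18759.7 and 16901 at 5 weeks and 12394, 13977 and 14074 at 8 weeks. At 12 weeks they were 4196, 4002 and 3847, at 16 weeks 2886, 3034 and 2731 and at 18 weeks 2302, 2409 and 2566. The 5-week arrays overlapped with normal liver, and every later group lay below the group before it. The changes were -0.08 ± 0.0642, -0.47, -2.21, -2.69 and -2.94 from 5 to 18 weeks, called from 12 weeks on (adjusted p = 1.79e-14 at 18 weeks), and the mean at 18 weeks was 13.0% of normal. The step from 8 to 12 weeks was -1.74 (adjusted p = 2.63e-11), beside which the steps of -0.39, -0.48 and -0.25 at the other times were not called.

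Sult1c2, another member of the 1C family, was measured by 2 probe sets. On the tested one signals were 1466, 1401 and 1519 in normal liver, 1067, 1072 and 964 at 5 weeks and 1066, 995 and 1031 at 8 weeks. They were 199, 188 and 216 at 12 weeks, 75.0, 80.4 and 85.3 at 16 weeks and 383, 400.1 and 410.4 at 18 weeks. The 5- and 8-week arrays overlapped with each other, and all other groups were apart, with the lowest at 16 weeks. The change was -0.49 ± 0.0618 at 5 and -0.50 at 8 weeks (not called), -2.77 at 12, -3.94 at 16 and -1.84 at 18 weeks, and the mean at 16 weeks was 5.49% and that at 18 weeks 27.2% of normal. The steps were -2.27 at 12 against 8 weeks (adjusted p = 9.4e-13), -1.17 at 16 against 12 weeks (adjusted p = 4.36e-09) and 2.11 at 18 against 16 weeks (adjusted p = 1.91e-11), all called. The 16-week mean of 80.2 was below the signal of 87.53 at which the filter on low signals was set, so the size of this change depends on the pseudocount, and with 64 in its place the step at 16 weeks was -0.88 and not called.

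The other Sult1c2 probe set gave signals of 1425, 1353 and 1376 in normal liver, 499, 595 and 543 at 5 weeks and 548, 534 and 537 at 8 weeks. Later it gave 261, 238 and 187 at 12 weeks, 121, 94.2 and 103 at 16 weeks and 375, 372 and 388 at 18 weeks. It kept the lowest level at 16 weeks and the higher one at 18 weeks (a step of 1.70), but was already lower at 5 weeks (-1.32 ± 0.101) and 8 weeks (-1.33), both called when every probe set was tested. The 2 probe sets thus differ on whether Sult1c2 had changed before 12 weeks. Its relative Sult1c2a had changes of -1.13, -1.24, -3.70, -4.32 and -2.70 from 5 to 18 weeks, all called, and a called step of 1.62 at 18 against 16 weeks. Members of the 1C family, and likewise of the 2A family, are close in sequence, and probe sets of 1 gene may also take up RNA of another, so their values are uncertain as to the gene.

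**Figure D2:**
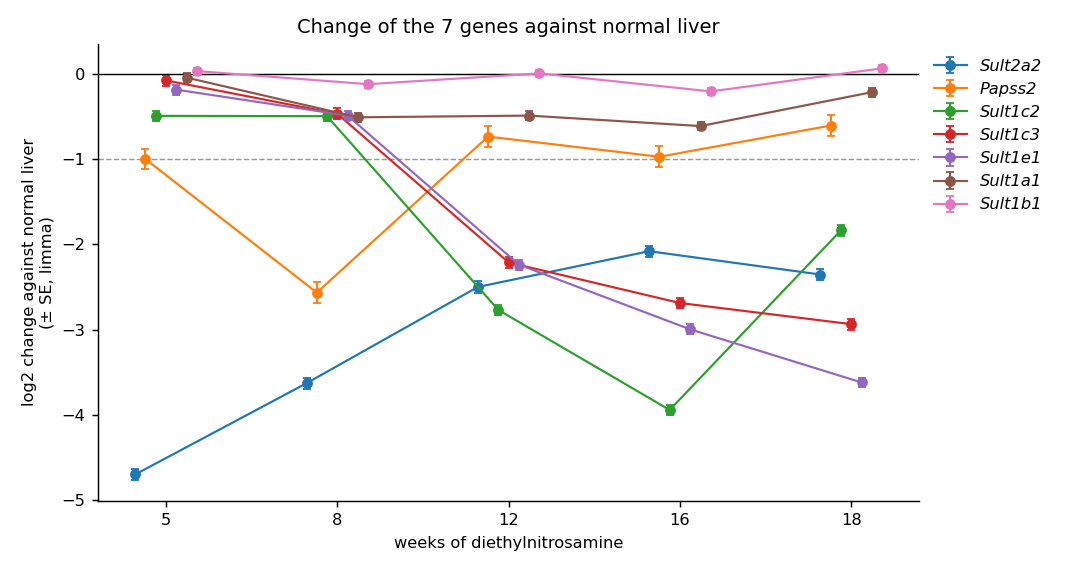
Change of the 7 genes against normal liver (vertical axis, difference of log2(signal + 16) ± SE from limma) at the 5 treated times, with points of 1 time set side by side and a dashed line at a 2-fold loss. Sult2a2 started at -4.70 and ended at -2.35, Sult1e1 and Sult1c3 ended at -3.62 and -2.94, and Sult1a1 and Sult1b1 stayed above the dashed line.

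Sult1a1, the main phenol sulfotransferase, and Sult1b1, which sulfates small phenols and thyroid hormones, were called at no time. Sult1a1 signals ranged from 23202.5 to 25887 in normal liver, 23136 to 25089.6 at 5 weeks, 16811 to 17846 at 8 weeks, 17560.3 to 17891.5 at 12 weeks, 15995 to 16472 at 16 weeks and 20769.7 to 22169 at 18 weeks. The 5-week arrays overlapped with normal liver and the others lay below it. The change of Sult1a1 was -0.05 ± 0.0508, -0.51, -0.49, -0.61 and -0.22 from 5 to 18 weeks, with adjusted p values of 4.66e-08 to 0.00169 from 8 weeks on and no change of 2-fold. Its size depended on the scaling between arrays. At 16 weeks it was -1.08 and called with each array centred on its median, and at 18 weeks it was 0.16 after quantile normalization.

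Sult1b1 signals ranged from 21979 to 23265 in normal liver, 22442.5 to 23494.5 at 5 weeks, 19763 to 21256 at 8 weeks, 22361.5 to 22567.5 at 12 weeks, 19176 to 19745 at 16 weeks and 22953 to 23997 at 18 weeks. Arrays at 8 and 16 weeks lay below normal liver and the other groups overlapped with it. The changes were 0.03 ± 0.0421, -0.12, 0.00, -0.21 and 0.06, of which those at 8 and 16 weeks had adjusted p values of 0.0211 and 0.000478. The sign was not stable, since the 16-week change was 0.33 after quantile normalization. In the order of genes of the GRCr8 annotation Sult1e1, Sult1d1, Sult1b1 and Ugt2a1 are neighbours on chromosome 14, and Sult1c2 and Sult1c3 lie on chromosome 9 with 1 gene between them. At 18 weeks Sult1e1 thus had a change of -3.62 where Sult1b1 had one of 0.06, and the UDP-glucuronosyltransferase gene Ugt2a1 had changes of -0.98 to -0.15 and was not called. Normal signals of Sult1a1, Sult1b1, Sult1e1, Sult1c3 and Sult2a2 were above 14196, the level under which 99% of the probe sets of normal liver lay. Saturation was not tested, and differences between such signals may be understated.

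Papss2 encodes a bifunctional PAPS synthase, with ATP sulfurylase and adenosine phosphosulfate kinase activity. Its signals were 5337, 5034 and 5057 in normal liver, 2423, 2561 and 2705 at 5 weeks and 640.1, 944 and 1032 at 8 weeks. They were 3118, 3059 and 3059 at 12 weeks, 2631, 2627 and 2571 at 16 weeks and 3588, 3279 and 3249.75 at 18 weeks. All treated arrays were below normal liver, and those at 8 weeks were below all others and varied most, with a mean of 872 ± 206 (SD), which is 17% of normal. The change was -1.0 ± 0.121 at 5 weeks and -2.57 at 8 weeks (adjusted p = 2.44e-10), both called, and -0.74, -0.97 and -0.61 at 12, 16 and 18 weeks, not called. The call at 5 weeks was at the threshold and was lost without the first normal array (-0.97) and without the first 5-week array (-0.96), after quantile normalization (-0.86) and with a pseudocount of 64 (-0.99). With median centring the changes at 12 and 16 weeks were -1.12 and -1.44 and were called.

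The Papss2 steps were -1.56 at 8 against 5 weeks (adjusted p = 2.15e-07) and 1.83 at 12 against 8 weeks (adjusted p = 1.3e-08). Array controls for shortened RNA moved at the same time. The ratio of 3' to 5' signal of Gapdh was 1.12 ± 0.0599 in normal liver, 1.47 ± 0.0293 after 5 weeks and 2.12 ± 0.0521 after 8 weeks, and later 1.23, 1.26 and 1.32 (mean ± SD, n = 3). That of beta-actin averaged 2.36, 3.52, 4.48, 2.69, 2.32 and 2.29 in the same order. The part of RNA quality in the Papss2 result was not tested. With the 8-week arrays left out of the fit, a choice made after these ratios were seen, 2, 4, 4 and 4 members were called at 5, 12, 16 and 18 weeks.

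Between neighbouring times the count of members called was 1 higher and 1 lower at 8 against 5 weeks, where 2.12% of all genes were called (1.10% higher and 1.02% lower). It was 2 higher and 3 lower at 12 against 8 weeks, where 6.41% of all genes were called (4.55% higher and 1.86% lower). At 16 against 12 weeks 1 member was lower and none higher, beside 1.43% of all genes (0.909% higher and 0.517% lower), and at 18 against 16 weeks 1 was higher and none lower, beside 1.54% (0.220% higher and 1.32% lower). With the 2-fold threshold the step to 12 weeks was the one with the most members called, in opposite directions, with Sult1e1, Sult1c3 and Sult1c2 lower and Sult2a2 and Papss2 higher. In the authors' deposited table of log2 ratios, the medians over 9 pairs of arrays from 5 to 18 weeks were -4.9, -3.8, -2.7, -2.1 and -2.5 for Sult2a2 and -0.1, -0.4, -1.9, -3.1 and -3.6 for Sult1e1. In the authors' deposited table Papss2 had -1.0, -2.2, -0.8, -1.1 and -0.7.

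Of the 9 other cytosolic sulfotransferases listed, 4 passed the filter and 3 were called at 1 or more times, beside 26.2% of all genes. Besides Sult1c2a, the hydroxysteroid sulfotransferase Sult2a6 (deposited as Smp2a) was lower at all 5 times, with changes of -2.12, -1.76, -1.81, -1.83 and -1.66. Its mean signals were 5351, 6874, 6641, 6552 and 7351 at the 5 times, against 23431 in normal liver, so that it did not show the gain over time seen in Sult2a2, and none of its steps was called. Sult2b1, which sulfates cholesterol and pregnenolone, was higher at all 5 times (2.79 at 5 weeks to 1.83 at 18 weeks). Its mean signal was 183 at 5 weeks and 88.2 at 18 weeks, against 12.9 in normal liver, where it lies below the filter level. Sult2b1 was thus tested only through treated arrays, and the size of its change depends on the pseudocount. The count of 3 called includes it. Sult5a1 was not called (-0.26 to 0.41).

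Of the 5 other genes that make, carry or remove PAPS, only Papss1 (20%) was called at 1 or more times, beside 26.2% of all genes. Papss1 was called higher at 12, 16 and 18 weeks and Papss2 lower at 5 and 8 weeks. This split rests on the 2-fold threshold. Papss2 was also below normal liver at 12, 16 and 18 weeks (-0.74, -0.97 and -0.61, adjusted p = 8e-05, 4.25e-06 and 0.000464 in limma). Papss1, the other PAPS synthase, had changes of 0.39 ± 0.159, 0.76, 1.15, 1.69 and 1.30 and rose at 12, 16 and 18 weeks (adjusted p = 2.09e-07 at 16 weeks). Its signal averaged 488, 642, 825, 1208 and 922 at the 5 times, against 363 in normal liver. The Golgi PAPS carriers Slc35b2 and Slc35b3 and the phosphatases Bpnt1 and Bpnt2, which degrade the product of PAPS, had changes of -0.46 to 0.60. The sulfate transporter Slc26a1, the 1 of 6 listed that passed the filter, had 0.65, 0.64, -0.56, -0.96 and -0.66 and was called only for the step at 12 against 8 weeks (-1.20, adjusted p = 1.5e-10).

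Inorganic sulfate is largely made from cysteine. Of 10 genes of that route 9 were tested, and 5 were called at 1 or more times, beside 26.2% of all genes tested. Cystathionine beta-synthase Cbs, with changes of 0.33, 0.13, -1.36, -1.36 and -1.34, cystathionine gamma-lyase Cth, with 0.07, -0.40, -1.0, -1.13 and -1.09, and cysteine dioxygenase Cdo1, with -0.32, -0.60, -1.36, -1.81 and -1.39, fell at 12, 16 and 18 weeks. The persulfide dioxygenase Ethe1 was lower at 16 weeks (-1.57). Csad, which takes cysteine sulfinate to taurine rather than to sulfate, was higher at 5 and 8 weeks (1.47 and 1.40). Sulfite oxidase Suox, the last step, had -0.75, -0.94 and -0.81 from 12 to 18 weeks and was not called. The median of the 9 genes was 0.27, -0.10, -0.75, -0.94 and -0.81 from 5 to 18 weeks.

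**Figure D3:**
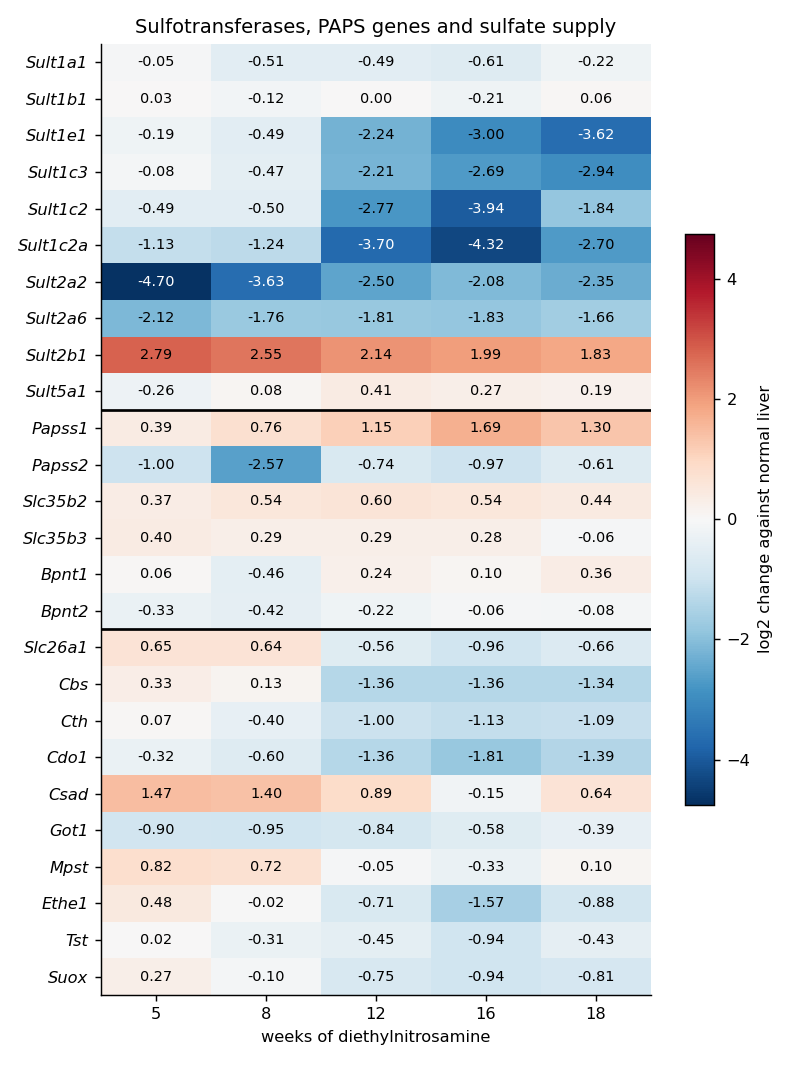
Change against normal liver (colour and printed value, difference of log2(signal + 16)) of the tested cytosolic sulfotransferases (top), the PAPS genes (middle) and the sulfate supply (bottom) at 5 to 18 weeks. Sult2a2 was -4.70 and Sult2b1 2.79 at 5 weeks, Papss1 reached 1.69 at 16 weeks where Papss2 was -0.97, and Cbs was -1.36 at 12 and 16 weeks.

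None of the 9 tested sulfatases and sulfatase-activating factors, which remove sulfate again, was called at any time in limma, beside 26.2% of all genes. Their changes were -0.31 to 0.84, although 6 to 8 of them had an unadjusted p under 0.05 at each time. When every probe set was tested, a further one of Arsb was called higher at 12, 16 and 18 weeks (1.22, 1.02 and 1.25), and one of Arsk was called lower at 8 weeks (-1.08). Of 10 tested Golgi sulfotransferases, which act on proteins and glycans, 4 were called at 1 or more times, beside 26.2% of all genes. Hs2st1 was not among them, but another of its probe sets was called higher at 16 and 18 weeks (1.18 and 1.12). A further probe set of Hs2st1 was not called. The heparan sulfate enzyme Hs3st1 rose at 12, 16 and 18 weeks (1.53, 1.92 and 1.34). So did the chondroitin sulfate enzyme Chst12 (1.34, 1.23 and 1.31). Their normal signals of 45.4 and 64.4 lay below the filter level, so both were tested only through treated arrays. Their calls higher thus add no support, and the count of 4 called includes both. The heparan sulfate enzymes Ndst1 at 8 weeks (-1.03), the time of the highest 3' to 5' ratios, and Ndst2 at 18 weeks (-1.02) were lower. In the parallel route of glucuronidation 7 of 21 listed genes were tested. Of these only Ugdh, which makes UDP-glucuronic acid, was called against normal liver (2.03, 1.39 and 1.93 at 12, 16 and 18 weeks), beside 26.2% of all genes called at 1 or more times. Ugt2b1 had a called step of -1.73 at 16 against 12 weeks.

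Of 15 tested receptors and factors known to act on sulfotransferase genes, 3 were called higher and 7 lower at 1 or more times (26.2% of all genes were called in either direction). The repressor Bcl6, more abundant in male liver, had changes of 2.95, 2.96, 1.39, 1.66 and 1.07 from 5 to 18 weeks, all called. Cux2, a female-predominant liver factor, had -2.40, -2.35, -1.50, -0.65 and -1.81, called at all times but 16 weeks. Its mean signals were 46.0, 48.3, 98.2, 190 and 76.2 at the 5 times, against 306 in normal liver. Cux2 thus passed the filter only through normal liver, where it was high, and the count of 7 lower includes it. Onecut1 had -1.81, -1.79, -2.48, -1.73 and -2.93, all called, while its other probe set had -1.01, -1.19, -0.99, -0.63 and -1.66 and was not called at 12 and 16 weeks. The hepatocyte factor Hnf4a had -1.98, -2.91, -0.72, -1.26 and -0.95, called at 5, 8 and 16 weeks, and its other probe set had -1.09, -1.78, -0.38, -0.78 and -0.70, called at 5 and 8 weeks. Hnf4a was thus lowest at 8 weeks, when the 3' to 5' ratio of Gapdh was highest (2.12), and the part of RNA quality in this was not tested. The xenobiotic receptor Nr1i3 (1.60) was higher at 12 weeks. These are levels of RNA, and their relation to the sulfotransferases was not tested.

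Genes with a known sex difference in rat liver were set beside the members. Of 7 tested male-predominant genes 0, 1, 5, 7 and 6 were called lower from 5 to 18 weeks and none higher, beside 1.61%, 3.13%, 4.43%, 5.60% and 4.41% of all genes, and at 5 weeks, where the count was 0, their median change was 0.04. The male-specific P450 Cyp2c11 had changes of 0.04, -0.54, -4.90, -6.74 and -6.84, with mean signals of 21262, 14276, 682, 179 and 169 at the 5 times, against 20718 in normal liver. Of 6 tested female-predominant genes 5, 5, 6, 6 and 5 were called lower at the same times, beside the same shares of all genes. Their median change was -2.96, -3.735, -2.82, -1.95 and -2.675 from 5 to 18 weeks, lowest at 8 weeks. The female-specific P450 Cyp2c12 had changes of -1.48, -2.04, -1.24, -1.04 and -0.86, and a mean signal of 33977 in normal liver. Akr1b7, an aldo-keto reductase on the female list, had -7.12, -6.11, -2.77, -1.04 and -2.54 and called gains at 8, 12 and 16 weeks over the time before (1.0, 3.34 and 1.73) and a called loss at 18 against 16 weeks (-1.50). The rest of that list differed in course. A1bg had -7.17, -6.36, -6.34, -4.62 and -4.89, and Prlr -3.99, -5.10, -3.33, -2.67 and -2.99. Srd5a1 (-1.93, -2.37, -2.87, -2.62 and -2.81) and Cyp2a1 (-0.55, -0.91, -1.13, -1.28 and -1.15) were lower at 12 than at 5 weeks. The normal liver arrays thus carried RNA of both Cyp2c11 and Cyp2c12.

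The genes most like each member over the 18 arrays were named by Pearson's r of log2(signal + 16) among 2958 genes whose group means spanned at least 1 on the log2 scale. Arrays of 1 group share a level, so r mostly reflects 6 group means and is given without a test. Nearest to Sult1c3 were Cyp2c11 (r = 0.995), the growth factor gene Egf (0.993) and Obp3 (0.992), and nearest to Sult1e1 were Egf (0.991), Cyp2c11 (0.989) and Gstp3 (0.987). Sult1c2 was closest to the chloride transporter gene Clcn4 (0.989) and to the peroxisomal acyl-CoA oxidase gene Acox2 (0.979). Acox2 had changes of -0.74, -0.22, -2.89, -3.34 and -1.54, with the same return at 18 weeks.

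Nearest to Sult2a2 were Trim24 (0.976), Chmp4c (0.953) and Sall1 (0.949). The transcription cofactor gene Trim24 had mean signals of 217, 273, 474, 904 and 643 at the 5 times, against 2401 in normal liver. Papss2 was closest to Manea (0.982), the macrophage gene Mpeg1 (0.968) and Bfar (0.962), all of which were also lowest at 8 weeks (changes of -1.43, -3.52 and -1.12). For Sult1a1 the nearest were Masp2 (0.930), Adk (0.922) and Hoga1 (0.906), and for Sult1b1, whose own means spanned 0.27, they were Dhcr7 (0.819), Ces1d (0.794) and Slc35c2 (0.786).

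**Figure D4:**
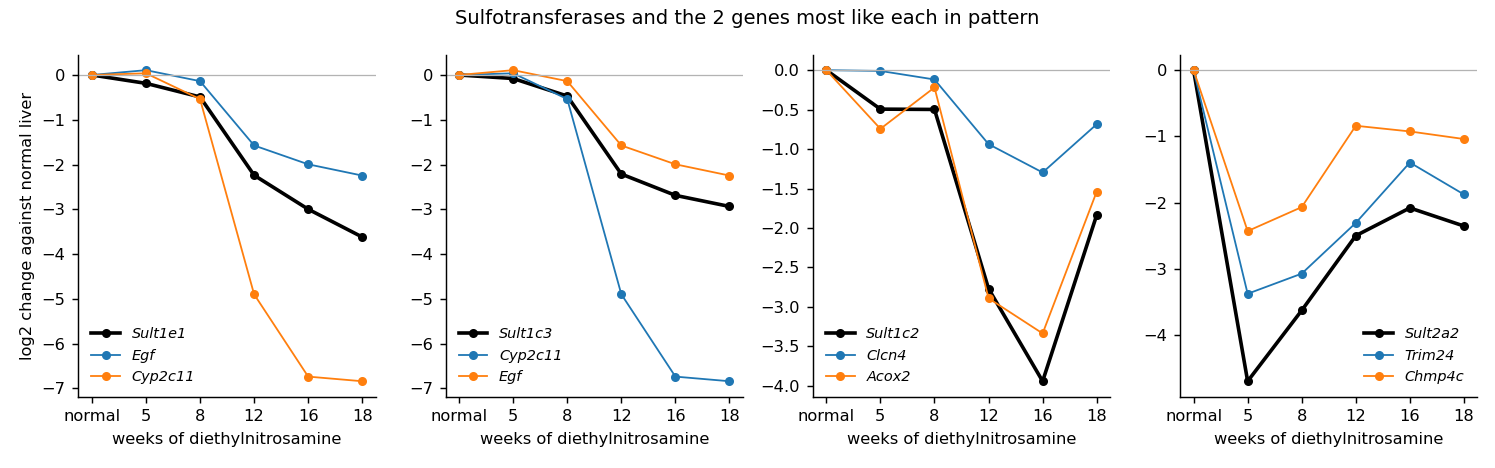
Change against normal liver (vertical axis, log2) of Sult1e1, Sult1c3, Sult1c2 and Sult2a2 (black) and of the 2 genes most like each in pattern (colours) from normal liver to 18 weeks, as group means of 3 arrays without error bars. Cyp2c11 reached -6.84 at 18 weeks beside -3.62 for Sult1e1, Acox2 and Sult1c2 were lowest at 16 weeks, and Trim24 and Sult2a2 were lowest at 5 weeks.

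The labelled tissue was checked against its markers. Of 8 hepatocyte markers all were tested and only Hnf4a was called lower (at 5, 8 and 16 weeks), and their summed signal ranged from 164233 to 221450 on the treated arrays, against 246081 to 284894 in normal liver. Summed signals of cholangiocyte, stellate cell and mast cell markers were higher at 12, 16 and 18 weeks, when Sult1e1, Sult1c3 and Sult1c2 were lower. Some of these markers were higher before that, while the sums of macrophage and endothelial markers were lower at 12, 16 and 18 weeks. Of the stellate cell and of the mast cell markers 2 each were called higher at 5 and at 8 weeks, and 2 cholangiocyte markers at 8 weeks. Of all genes 4.47% and 7.31% were called higher at 5 and 8 weeks. All 4 tested cholangiocyte markers of 6 (Krt19, Epcam, Cldn7 and Spp1) were higher at 12, 16 and 18 weeks, where 12.1%, 14.5% and 11.0% of all genes were called higher. Cldn7 averaged 6.81 in normal liver, below the filter level of 87.53, and so was tested only through its signals on treated arrays. The cholangiocyte list summed to 8641 to 8969, 10984 to 12136 and 8977 to 9464 at 12, 16 and 18 weeks, against 1387 to 1463 in normal liver, while Sox9 stayed between 2.13 and 8.91 in all groups. Of 6 stellate cell markers (Col1a1, Acta2, Des, Lrat, Pdgfrb and Dcn) 3, 5 and 3 were higher at 12, 16 and 18 weeks, and their sum was 3275 to 3467 at 5 and 8 weeks and 5672 to 8758 at the later times, against 1545 to 1811 in normal liver. The 5 macrophage markers summed to 10443 to 11015 at 16 weeks, against 20873 to 21543 in normal liver, and the 5 endothelial markers to 5187 to 5441, against 7874 to 8569. The markers within these lists were split. At 16 weeks Clec4f, Cd5l and Cd163 were below their normal means, while Cd68 (2377 against 2077) and Adgre1 (1183 against 1043) were above. Stab2, Lyve1 and Kdr were below theirs, while Pecam1 (521 against 312) and Cdh5 (682 against 489) were above. Mast cell markers summed to 727 to 896 at 5 weeks, 1026 to 1265 at 8 weeks and 4037 to 4320 at 16 weeks, against 269.99 to 361 in normal liver. Of those tested, Mcpt2, Cma1 and Fcer1a averaged 31.0, 11.2 and 57.8 in normal liver, below the filter level, and so were tested only through treated arrays. Only 2 of 6 lymphocyte and 1 of 5 kidney tubule markers were tested, and none was called. The part of these cells in the losses of the sulfotransferases was not tested. Arrays of 1 group correlated at r = 0.985 to 0.991 over genes and those of different groups at 0.875 to 0.980, where genes are not independent replicates.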

How the data were processed

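RNA was isolated with Trizol followed by RNeasy clean-up, with 5 ug used for each array, per the labels' protocols, and GCOS 2.0 was used on the scans, per the submitters' processing notes. The authors deposited for every probe set an intensity on a linear scale, whose scaling target is not given here. Their workbook repeats these values and adds, per the file headers, the log2 ratios of treated over normal arrays for 9 pairs at each time. The workbook's treated columns differed from the value table by no more than 0.1, whereas its normal columns were in a different row order (r by probe set 0.064 or less) and were left out.

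Intensities were analysed as log2(signal + 16) with no further scaling, which understates changes of weak signals. Probe sets with a mean log2 value above the 40th percentile (a signal of 87.53) were kept (18625), and a gene was represented by its probe set of highest mean. One limma model (limma 3.58.1, R 4.3.3) held all 6 groups, with two-sided tests and Benjamini-Hochberg adjustment over 10453 genes, and was tested on simulated data. Python 3.11.15 with pandas 2.3.3 served for tables. Promoters came from RefSeq (GRCr8), where all 7 members matched.

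The members and lists were chosen with earlier results of these data known. The text names every member, up to 4 called genes per list with the largest mean change or any that a count of 5 or fewer covers, the 3 most like genes per member, Cyp2c11 and Cyp2c12. Some genes under this rule are not reported here. Other genes named were chosen after their values were seen. Alternatives were other pseudocounts, scalings, filters, probe set choices, fold thresholds and variance models, a replicate block, and each array left out. Fits without the 8-week arrays were added after seeing the data.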

Additional observations from a re-analysis of the deposited data

Results flagged for a closer look

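The change against normal liver differed between neighbouring times for 5 of the 7 genes, by the step test in limma (adjusted p under 0.05 and at least 2-fold). For Sult2a2 it differed by 1.07 between 8 and 5 weeks and by 1.13 between 12 and 8 weeks, higher at the later time in each case. For Papss2 it differed by -1.56 between 8 and 5 weeks and by 1.83 between 12 and 8 weeks. At 12 against 8 weeks the difference was -1.75 for Sult1e1, -1.74 for Sult1c3 and -2.27 for Sult1c2. Sult1c2 differed further by -1.17 between 16 and 12 weeks and by 2.11 between 18 and 16 weeks. On all 9 occasions the 3 arrays of one time lay apart from the 3 of the other. These steps were picked by the size and adjusted p of their difference, so this adds no support. Groups of 3 arrays are too small to look for single arrays that stand out.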

How the results depend on the processing

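Of the values of single members under other settings, 1166 counted as unchanged, 32 gained a call, 11 lost one and 23 changed sign. The unchanged include the authors' ratios, compared by sign alone, and the workbook's mean signals, compared within the SD, which have no call. Gained calls came from dropping the fold threshold, except those with median centring of Papss2 at 12 and 16 weeks and Sult1a1 at 16 weeks. Some lost calls came from the 3-fold threshold, where the values stayed the same. Over all settings the count of members called against normal liver was 4 to 6 at 12 and at 18 weeks and 4 to 7 at 16 weeks. With a pseudocount of 64 there was 1 member called at 5 weeks and 0 at 16 against 12 weeks (limma; 6 had an unadjusted p under 0.05). Quantile normalization gave 1 at 5 weeks. Without a fold threshold the counts were 4 at 5 weeks, 7 at 8 and at 16 weeks, 6 at 8 against 5, 5 at 16 against 12 and 7 at 18 against 16 weeks, where 50.7%, 59.6%, 68.7%, 36.1%, 27.7% and 38.6% of all genes passed. The step at 12 against 8 weeks then had 6 (50.6% of all genes) and was no longer the one with the most. A 3-fold threshold gave 1 at 5 weeks and 0 at 8 against 5 and at 16 against 12 weeks (6 with an unadjusted p under 0.05 in each). Leaving out 1 array in turn gave 1 to 2 at 5 weeks, the lower count without the first normal or the first 5-week array. Signs that changed were all of changes under 0.50 in size and never called as deposited. After quantile normalization they were Sult1a1 (0.15 at 5 and 0.16 at 18 weeks, -0.029 at 12 against 8 and 0.0221 at 16 against 12), Sult1c3 and Sult1e1 at 5 weeks (0.13 and 0.0492) and Sult1b1 (0.25 at 8 and 0.33 at 16 weeks, 0.0621 at 8 against 5). With median centring they were Sult1b1 (-0.0691, -0.38 and -0.12 at 5, 12 and 18 weeks, -0.15 at 12 against 8), Sult1a1 at 12 against 8 (-0.25), and Sult1c3 (0.0341) and Sult2a2 (0.0086) at 18 against 16 weeks. Leaving out 1 array in turn also changed signs, with values of -0.0103 to 0.0307 for Sult1b1 at 12 weeks, -0.0531 to 0.0226 for Sult1c2 at 8 against 5 and -0.0079 to 0.0352 for Sult1a1 at 12 against 8 weeks. The cause was not tested. Median centring moved the median change of all genes to -0.06, 0.01, -0.23, -0.31 and -0.07 from 5 to 18 weeks. With the replicate number as a replicate block the counts were unchanged at 2, 2, 4, 4 and 4 against normal liver and 2, 5, 1 and 1 for the steps. Arrays with the same number deviated together by r = 0.043 on average (-0.022 for other numbers). Of 45 pairs with the same number 9 were over 0.1, against 3 of 90 other pairs. Some sharing by number is thus possible, and the main fit took the arrays as unpaired.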
